A study of Mus musculus with 41 samples.

Results

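The genes described here are 35 members of the actin contractile apparatus and of the programmes driven by the transcription factors SRF and YAP. They were chosen as a fixed list of symbols and were followed by Ensembl identifier through 3 deposited expression tables. All 35 were present in every table, out of 14133 genes listed in any of them. The cells were MEEC, a mouse embryonic endocardial cell line of wild-type genotype. The study put them in contact with the Notch ligands Dll4 and Jag1 or blocked Notch with RO4929097, an inhibitor of γ-secretase, the protease that releases the active Notch fragment. In the first experiment MEEC were grown for 6 h or 24 h over OP9 stromal cells that carried GFP, Dll4 or Jag1 (OP9-GFP, OP9-Dll4 and OP9-Jag1), with 3 libraries in each of 6 groups. The OP9 layer was at 90% confluence, and the MEEC were at 50% confluency for 6 h and at 25% for 24 h. In the second experiment MEEC received the vehicle DMSO or 20 µM RO4929097 for 24 h and were then placed over OP9-GFP for 6 h, with 4 libraries in each group. In the third experiment no OP9 cells were used. MEEC were plated on wells alone or on wells with attached DLL4-His (rDLL4) or JAG1-Fc (rJAG1), with DMSO or with 20 µM RO4929097 in the ligand wells (rDLL4+RO, rJAG1+RO), for 24 h with a further 14 h without serum, with 3 libraries in each of 5 groups. The control and the ligand-alone wells of that experiment also held DMSO. MEEC is 1 cell line, and whether each library had a culture of its own is not in the labels, so p-values here cover the spread between libraries, which may be technical. The labels also do not say whether MEEC were separated from OP9 cells before RNA was extracted. In these bulk libraries, fewer cells of a type and less RNA per cell cannot be told apart.

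Actin filaments, moved by myosin and anchored at focal adhesions, give a cell its tension and shape. When free actin monomer falls, the coactivator MRTF enters the nucleus and works with SRF on genes that encode actins, smooth-muscle type contractile proteins and adhesion proteins. Tension also keeps the coactivators YAP and TAZ in the nucleus, where they bind TEAD factors, while the Hippo kinases, LATS among them, hold them in the cytoplasm. In the embryonic heart, endocardial cells of the valve and outflow regions receive Notch signals and take on contractile and mesenchymal traits as they leave the endocardial sheet.

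The members were ordered in 4 groups by role. The first holds 10 genes of the SRF and smooth-muscle contractile programme, among them Acta2 (smooth-muscle α-actin), Tagln (transgelin), Cnn1 (calponin), Myl9 (a myosin regulatory light chain), Mylk (myosin light chain kinase) and Srf itself. The second holds 9 genes for cytoplasmic actins, nonmuscle myosin and general actin-binding proteins. The third holds 9 genes for actin crosslinkers and focal adhesion proteins, among them Zyx (zyxin), Tln1 (talin, which couples integrins to actin), Vcl (vinculin) and Pdlim7 (a PDZ and LIM domain protein of actin bundles). The fourth holds 7 genes of YAP-TEAD transcription, namely the targets Ccn1 and Ccn2 (secreted matricellular proteins), Ankrd1, Amotl2 and Ajuba, the factor Tead1 and the Hippo kinase Lats2.

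Promoter windows from RefSeq (GRCm38.p6), 250 bases before to 50 bases after the annotated start, were found for 31 of the 35 members. Actb, Ccn2, Tead1 and Tagln had no entry. Both strands were searched for the CArG box, the binding motif of SRF, in its exact form only (CC, 6 bases of A or T, GG). They were also searched for the TEAD motif GGAATG, which reads CATTCC on the other strand. The 2 motifs overlapped in 6 windows of all genes. The 31 members had 36 windows, and a member was counted if any of its windows held a match, while the share over all genes is per window. The CArG box was present in 7 of the 31 members (22.6%) and in 1.63% of all 32851 windows. Those members were Actg1, Cnn2, Lima1, Myl6, Myl9, Srf and Vcl. The TEAD motif was present in 15 of the 31 members (48.4%) and in 14.7% of all windows. The members were listed as known targets, so these shares describe the list and nothing more, and a match of letters is not a bound site. The 250 bases before the start are printed for 5 members that fell with the Notch inhibitor on a bound ligand (Acta2, Tpm1, Ankrd1, Tagln2 and Pdlim7) and for 2 members with a CArG box that changed in co-culture (Cnn2 and Myl9), with motif matches in capitals. The windows are chr19:34255374-34255623 (minus strand) for Acta2, chr9:67049214-67049463 (minus) for Tpm1, chr19:36119845-36120094 (minus) for Ankrd1, chr1:172499996-172500245 (plus) for Tagln2, chr13:55513447-55513696 (minus) for Pdlim7, chr10:79988350-79988599 (plus) for Cnn2 and chr2:156775214-156775463 (plus) for Myl9.
Acta2: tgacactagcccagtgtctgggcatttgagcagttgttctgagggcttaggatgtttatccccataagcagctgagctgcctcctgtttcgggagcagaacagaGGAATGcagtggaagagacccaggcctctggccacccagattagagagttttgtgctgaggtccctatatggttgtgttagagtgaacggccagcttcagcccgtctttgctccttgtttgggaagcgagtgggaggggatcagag
Tpm1: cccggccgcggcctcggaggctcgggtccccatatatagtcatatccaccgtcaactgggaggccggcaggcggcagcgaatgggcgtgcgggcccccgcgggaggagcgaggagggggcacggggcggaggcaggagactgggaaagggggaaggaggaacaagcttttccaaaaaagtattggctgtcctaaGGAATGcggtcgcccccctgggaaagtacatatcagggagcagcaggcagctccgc
Ankrd1: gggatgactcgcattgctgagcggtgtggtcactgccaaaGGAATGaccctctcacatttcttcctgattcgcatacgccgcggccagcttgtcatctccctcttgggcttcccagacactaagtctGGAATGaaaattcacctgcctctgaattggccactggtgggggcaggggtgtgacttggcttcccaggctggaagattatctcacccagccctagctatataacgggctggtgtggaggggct
Tagln2: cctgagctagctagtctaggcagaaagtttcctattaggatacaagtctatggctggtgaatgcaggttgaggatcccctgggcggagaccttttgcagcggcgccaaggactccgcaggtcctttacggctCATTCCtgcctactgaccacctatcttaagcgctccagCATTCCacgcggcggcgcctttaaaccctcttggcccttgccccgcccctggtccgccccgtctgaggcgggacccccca
Pdlim7: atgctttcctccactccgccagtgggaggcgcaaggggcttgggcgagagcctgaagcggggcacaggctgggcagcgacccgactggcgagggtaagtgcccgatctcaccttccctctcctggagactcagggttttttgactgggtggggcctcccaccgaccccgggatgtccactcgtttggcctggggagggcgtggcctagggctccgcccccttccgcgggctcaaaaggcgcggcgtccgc
Cnn2: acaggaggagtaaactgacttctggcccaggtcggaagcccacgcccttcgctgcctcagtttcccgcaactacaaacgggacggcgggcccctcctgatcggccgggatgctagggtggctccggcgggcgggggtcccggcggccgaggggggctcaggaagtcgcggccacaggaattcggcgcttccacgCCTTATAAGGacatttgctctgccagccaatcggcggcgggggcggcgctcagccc
Myl9: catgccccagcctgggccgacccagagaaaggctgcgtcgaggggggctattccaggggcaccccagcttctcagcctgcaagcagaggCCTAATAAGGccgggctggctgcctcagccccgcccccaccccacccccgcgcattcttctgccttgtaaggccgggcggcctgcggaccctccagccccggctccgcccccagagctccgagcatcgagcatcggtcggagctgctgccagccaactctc
In these sequences the capitals mark a TEAD motif in Acta2 and Tpm1, TEAD motifs at 2 places in Ankrd1 and Tagln2, and an exact CArG box in Cnn2 and Myl9. Near matches to the CArG box were not counted, so a window without a marked one may still hold them. The Acta2 window holds ccctatatgg and ccttgtttgg, each 1 base away from the exact form. Pdlim7, the member with the smallest adjusted p under the inhibitor on either bound ligand, held neither the exact CArG box nor the TEAD motif in this window.

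Levels were compared between genes per length, as the deposited signal (reads over a scaled library size) per kb of merged exon, taking the median of the 13 group means. The cytoplasmic actins led, with Actg1 at 1558 and Actb at 1418. The rest of their role group followed at 471.9 for Tpm4, 333.6 for Tagln2, 190.2 for Myl6, 131.1 for Cnn3, 118.9 for Cnn2, 109.6 for Myh9 and 42.28 for Myh10. Among the SRF and smooth-muscle type genes the per-kb signal was 579.9 for Acta2, 353 for Tagln, 225.7 for Tpm1, 154.9 for Csrp1, 117 for Cald1, 77.09 for Tpm2, 53.63 for Myl9 and 31.42 for Srf. Cnn1 and Mylk, both used as markers of differentiated smooth muscle, were far below their role group at 4.211 and 0.4081 per kb. Crosslinkers and adhesion genes ran from 210.7 for Flna, 173.2 for Actn1, 128.6 for Vcl, 125.1 for Zyx and 117.3 for Actn4 to 75.24 for Flnc, 61.81 for Tln1, 25.84 for Pdlim7 and 23.4 for Lima1. Among the YAP-TEAD genes, Ccn1 led at 349.1 per kb, followed by Ankrd1 at 72.01, Amotl2 at 69.54, Ccn2 at 68.08, Ajuba at 39.96, Tead1 at 37.87 and Lats2 at 32.31. These medians pool tables that were normalized apart. In the bound-ligand experiment Ankrd1 had group means of 9.33 to 37.7 per kb, all below those of Amotl2 at 53.3 to 69.5.

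A library held 14.1 to 16.8 M reads (M, mega) for the timed co-culture, 19.4 to 25.2 M for the inhibitor over OP9-GFP, and 11.2 to 34.2 M on bound ligands. The summed signal of known Notch targets followed the labels, at 54.7 to 66.0 over OP9-GFP against 77.9 to 151 over the ligand-bearing OP9 cells, 62.7 to 74.5 after DMSO against 31.5 to 40.4 after RO4929097 over OP9-GFP, and 36.2 to 44.6 on plain wells against 81.7 to 152 on bound ligands and 26.9 to 35.8 on ligands with the inhibitor. Of 12 endothelial and endocardial markers 5 or 6 were listed, with Pecam1, Cdh5, Tie1, Emcn, Erg and Cldn5 not among the listed genes, and their summed signal was 27.1 to 117. The OP9 stromal markers summed to 5771 to 10389 with OP9 cells and 5950 to 9439 in the third experiment, which had none. Their sum therefore does not separate OP9 from MEEC. Single markers differed between the separately normalized experiments, and in both directions. Vcam1 was at 156.7 to 298 and 232.9 to 300.8 with OP9 cells and 58.94 to 119.7 without. Col3a1 was at 1880 to 3939 and 1693 to 2863 with them and 2565 to 5328 without.

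Several libraries stood apart in these genes. The third DMSO library of the bound-ligand experiment had the highest signal of its group for 33 of 35 members, against 38.5% of all genes, and its mean member level lay 0.46 above the mean of that experiment on the log2 scale, where the other DMSO libraries lay at -0.25 and -0.40. Its Notch-target sum of 44.6 was near those of the other DMSO libraries, at 36.2 and 40.5, and its stromal sum was 5950 against 8911 and 9270. Of the endothelial markers, Tek, the most abundant, was at 46.83 there against 97.06 and 99.88, while the other 4 summed to 24.57 against 18.88 and 16.6. The second rJAG1 library had the lowest signal of its group for 30 of 35 members, against 38.5% of all genes. The second rJAG1+RO library had the lowest for 33 of 35, against 33.4%, with a mean member level of -0.31 beside 0.00 and 0.07. In the other experiments, DMSO library 1 over OP9-GFP was the lowest of its group for 27 members, against 30.8% of all genes. OP9-Jag1 library 1 at 6 h was the highest of its group for 27, against 35.4%. Libraries numbered 3 in the bound-ligand experiment held the group's highest value for 33, 29, 30, 24 and 17 members in DMSO, rDLL4, rJAG1, rDLL4+RO and rJAG1+RO. The shares over all genes were 38.5%, 33.5%, 30.7%, 33.7% and 31.3%. In rJAG1+RO, library 1 was the highest for 18 members. In the first experiment the libraries numbered 2 at 6 h were low in Acta2, at 698.5 to 748.5 against 1197 to 1818 in the other 6 libraries of that time. Their marker sums also differed from those 6, at 9391 to 10273 against 6704 to 7992 (stromal) and 58.9 to 66.2 against 37.3 to 47.9 (endothelial). For cardiomyocyte markers the sums were 13.7 to 15.7 against 22.4 to 41.7. The within-group coefficient of variation, as a median over the 13 groups, was highest for Mylk (29.9%), Ankrd1 (28.9%), Acta2 (22.6%), Tagln (20.9%) and Ccn2 (20.5%) and lowest for Myh9 (4.56%), Cnn3 (5.21%) and Actn4 (5.41%). It was largest in the DMSO group of the bound-ligand experiment for 29 of 35 members.

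**Figure D1:**
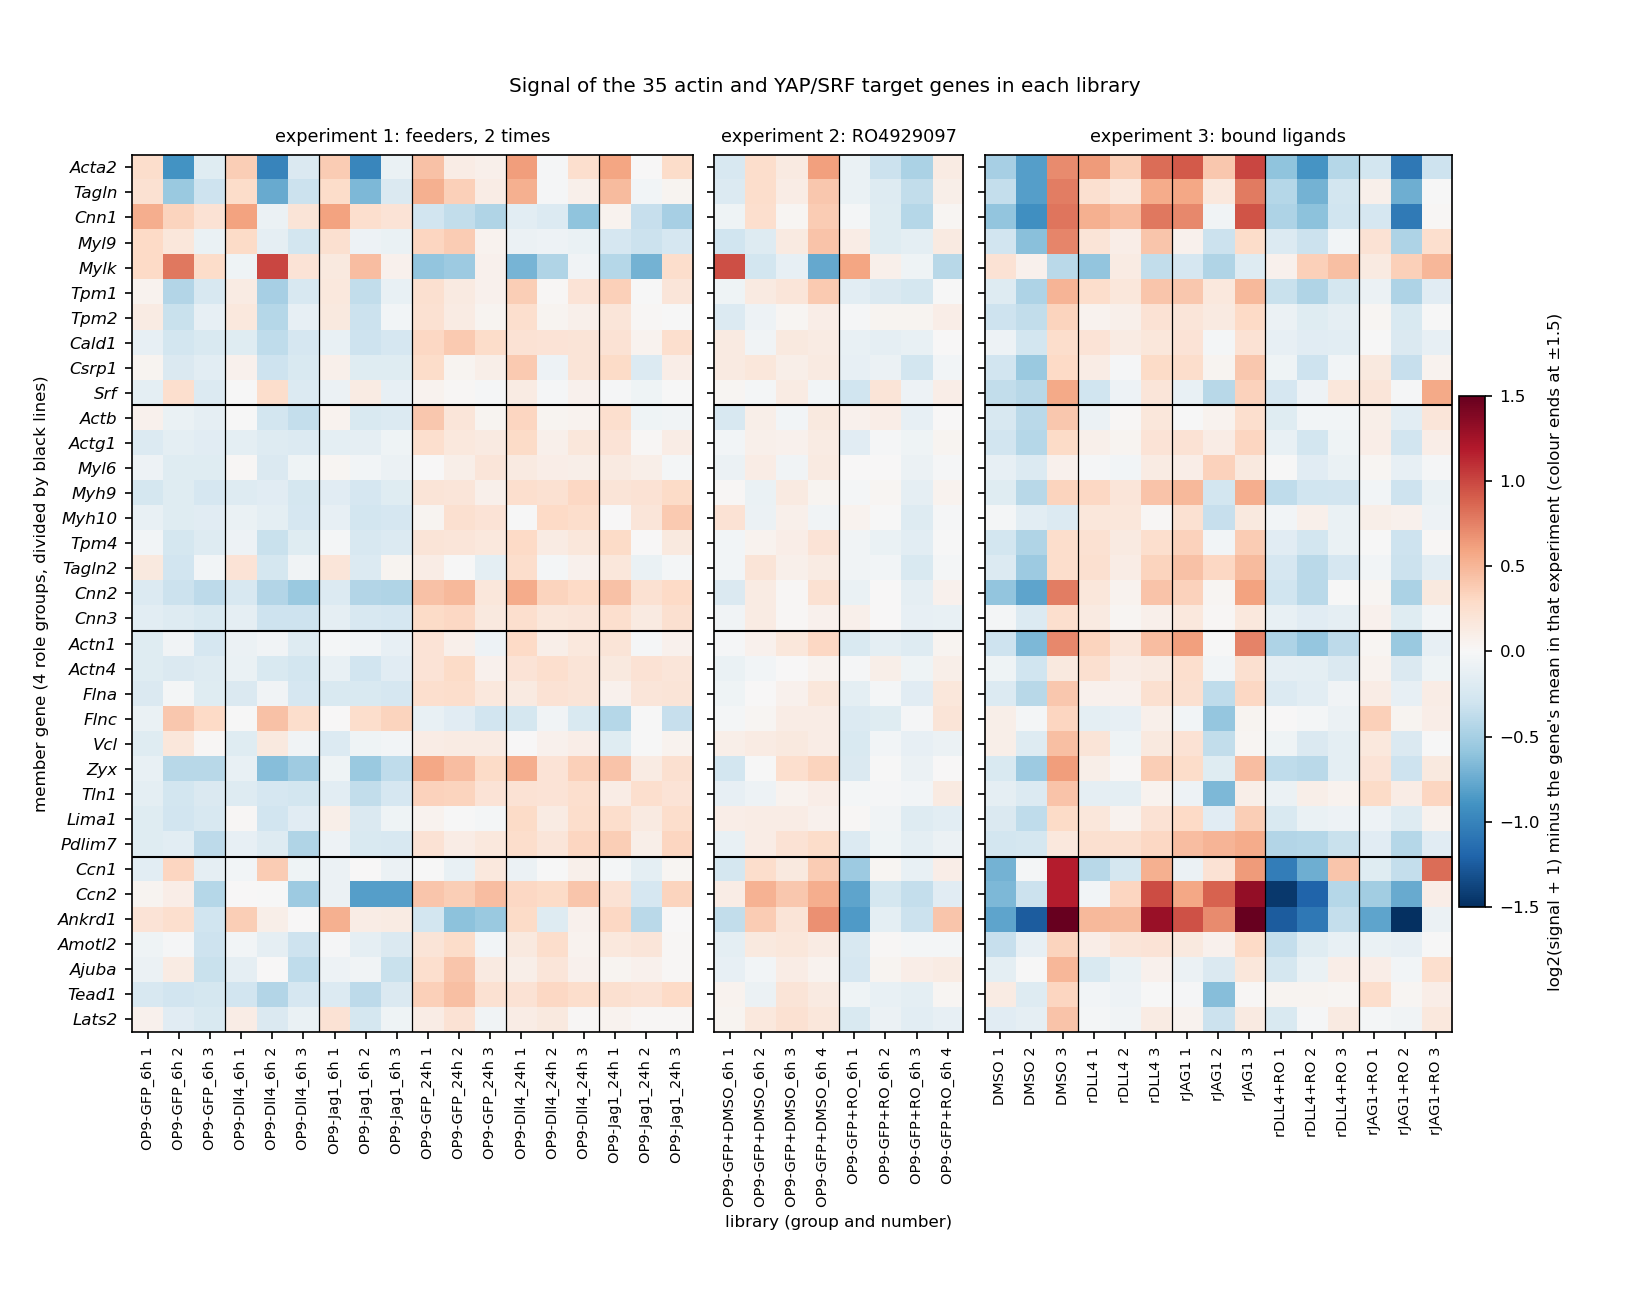
Signal of the 35 genes (rows, by role group) in the 41 libraries (columns, by group and experiment), as log2(signal + 1) minus the gene's mean within its experiment, so that colours compare libraries within an experiment only. DMSO library 3 is red in nearly all rows beside the blue DMSO libraries 1 and 2, and the 24 h libraries of the co-culture are redder than the 6 h libraries for most genes.

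Time in co-culture was compared within each feeder layer. Over OP9-GFP, 16 of the 35 members rose and 1 fell between 6 h and 24 h at an adjusted p under 0.05 (limma on log2(signal + 1), Benjamini-Hochberg adjusted over all genes). Of all genes, 19.2% were called there, 9.45% higher and 9.71% lower. Over OP9-Dll4, 16 rose and 1 fell, where 17.4% of all genes were called, 9.09% higher and 8.33% lower. Over OP9-Jag1, 14 rose and 2 fell, where 14.7% of all genes were called, 7.14% higher and 7.61% lower. The median member change was 0.32, 0.35 and 0.24 on the log2 scale in the 3 layers, and the median over all genes was -0.01, -0.01 and 0.00. The same 13 genes rose in all 3 layers (Actn4, Cald1, Cnn2, Cnn3, Flna, Lima1, Myh10, Myh9, Pdlim7, Tead1, Tln1, Tpm4 and Zyx), and Cnn1 fell in all 3. The 3 comparisons share 1 fit and its estimate of each gene's spread, so their calls are not independent. The share of all genes called in all 3 layers was not taken. It cannot exceed the shares over OP9-Jag1, 7.14% higher and 7.61% lower. Confluency of MEEC was 50% at 6 h and 25% at 24 h, so time and cell density cannot be told apart. The signal of a library summed to 9.58e+05 to 9.796e+05 at 6 h and to 1.022e+06 to 1.046e+06 at 24 h. The part of this difference in the changes was not tested.

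Of the 9 adhesion and crosslinking genes, 6, 7 and 6 were higher over OP9-GFP, OP9-Dll4 and OP9-Jag1. Zyx (chr6:42349630-42360213, plus strand), a LIM protein of focal adhesions, stood at 772.2, 628.1 and 629 over OP9-GFP at 6 h and at 1251, 1151 and 1020 at 24 h. All 3 later libraries lay above all 3 earlier ones, and the log2 fold change was 0.75 (SE 0.15, limma adjusted p = 0.0026). Over OP9-Dll4 it was 0.79 (adjusted p = 0.0019) and over OP9-Jag1 0.60 (adjusted p = 0.013). Talin, Tln1 (chr4:43531519-43562691, minus strand), had signals of 649.5, 591.6 and 616.4 at 6 h and 910.4, 901.5 and 827.9 at 24 h over OP9-GFP. Its libraries did not overlap, with log2 fold changes of 0.51, 0.46 and 0.45 in the 3 layers (SE 0.07 each) and limma adjusted p-values of 0.00016, 0.00038 and 0.00044. Pdlim7 (chr13:55495795-55513676, minus strand) stood at 126, 128 and 108.6 at 6 h over OP9-GFP and at 166.3, 155 and 159.7 at 24 h. It rose by 0.41, 0.51 and 0.44 (SE 0.09 each), with no overlap. Actn4 and Flna, which crosslink actin filaments, rose by 0.38 and 0.37 over OP9-GFP (limma adjusted p = 0.0021 and 0.0099), by 0.42 and 0.36 over OP9-Dll4 and by 0.37 and 0.38 over OP9-Jag1. Lima1 rose by 0.24, 0.37 and 0.29, and Actn1 was called at 0.30 over OP9-Dll4 and not over the other layers, a difference between layers that did not pass the test. Flnc, the muscle filamin, went the other way, with 710.8, 707.4 and 678.9 at 24 h against 953.3, 937.0 and 930.3 at 6 h for OP9-Dll4, OP9-GFP and OP9-Jag1. It was called over OP9-Jag1 (log2 fold change -0.46, SE 0.14, limma adjusted p = 0.039) and not over OP9-GFP (-0.39, adjusted p = 0.064) or OP9-Dll4 (-0.41, adjusted p = 0.053). Vcl had values of 0.12, 0.08 and 0.06 and passed the test in no layer.

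Of the 9 genes for actins, nonmuscle myosin and actin-binding proteins, 7, 6 and 5 rose in the 3 layers. Calponin 2, Cnn2 (chr10:79988584-79996062, plus strand), whose CArG box is shown above, had the largest change, with signals of 313.8, 288.1 and 275.2 at 6 h and 489.4, 506.6 and 407.2 at 24 h over OP9-GFP. Every later library lay above every earlier one, and the log2 fold changes were 0.67, 0.81 and 0.69 (SE 0.10 each), with limma adjusted p-values of 0.00047, 0.00012 and 0.00041. Cnn3 rose by 0.44, 0.46 and 0.42, from 331.3, 322.5 and 314.5 to 450.3, 457.4 and 407.8 over OP9-GFP. Myh9, the heavy chain of nonmuscle myosin IIA, rose from 1410, 1488 and 1418 to 1945, 1915 and 1784 over OP9-GFP, again without overlap. Its log2 fold changes were 0.39, 0.47 and 0.43 (limma adjusted p = 0.0022, 0.00055 and 0.0010). Tpm4 rose by 0.35, 0.40 and 0.30, and Myh10 by 0.32, 0.35 and 0.41. Actg1 rose by 0.35 over OP9-GFP and 0.36 over OP9-Dll4 and had 0.22 over OP9-Jag1, short of the threshold, while Myl6 was called over OP9-GFP alone at 0.24. Actb was not called, at 4818 against 3995 over OP9-GFP, nor was Tagln2, at 0.05, 0.14 and 0.00.

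The smooth-muscle type genes were divided. Caldesmon, Cald1 (chr6:34598500-34775473, plus strand), which regulates the actin-myosin interaction, rose from 1121, 1010 and 1037 to 1508, 1605 and 1473 over OP9-GFP. Its log2 fold changes were 0.53, 0.48 and 0.40 (SE 0.08 each; limma adjusted p = 0.00046, 0.0011 and 0.0041), with no overlap over OP9-GFP. Cnn1 (chr9:22099216-22109630, plus strand) fell from 16.08, 13.72 and 12.59 to 8.537, 8.049 and 7.568, again with no overlap. Its log2 fold changes were -0.74, -0.56 and -0.62 (SE 0.18 each; limma adjusted p = 0.0099, 0.041 and 0.029). Acta2 and Tagln had large but uneven differences: Acta2 stood at 1677, 748.5 and 1224 at 6 h and 1888, 1503 and 1467 at 24 h over OP9-GFP, where the groups overlapped. Its change of 0.48 had an SE of 0.35 and an adjusted p of 0.36 in limma. The other 6 genes of this role (Tpm1, Tpm2, Csrp1, Srf, Myl9 and Mylk) also passed the test in no layer.

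Among the YAP-TEAD genes, Tead1 (chr7:112679318-112906807, plus strand), the DNA-binding partner of YAP, was the member with the smallest adjusted p of all over OP9-GFP. It stood at 415.9, 404.2 and 410.9 at 6 h and at 634.3, 676.5 and 580.1 at 24 h, without overlap. The log2 fold changes were 0.62, 0.59 and 0.52 (SE 0.07 each; limma adjusted p = 5.7e-05, 7.3e-05 and 0.00019). Each of the other calls in this role was made in 1 layer: Ajuba over OP9-GFP (0.37, adjusted p = 0.033), Amotl2 over OP9-Dll4 (0.32, adjusted p = 0.037) and Ccn2 over OP9-Jag1 (0.68, SE 0.20, limma adjusted p = 0.029). Ccn2 libraries over OP9-Jag1 stood at 186.1, 110.5 and 110.9 at 6 h and 229.2, 166 and 248.8 at 24 h, which overlap. Ccn1, Ankrd1 and Lats2 were not called in any layer, and Ankrd1 differed by -0.53, -0.10 and -0.28.

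With quantile normalization the split of calls moved. It called 8 higher and 3 lower over OP9-GFP, 11 and 1 over OP9-Dll4 and 7 and 1 over OP9-Jag1. The median member changes were 0.17, 0.20 and 0.12, against 0.01 over all genes in each layer. The share of all genes called under quantile normalization is not given here, so these counts cannot be set against it. Cnn2, Cnn3, Pdlim7, Tead1, Tln1 and Zyx, 6 members in all, kept their calls in all 3 layers. The calls lost were 8 over OP9-GFP (Actg1, Actn4, Ajuba, Lima1, Myh10, Myh9, Myl6 and Tpm4), 6 over OP9-Dll4 (Actg1, Actn1, Amotl2, Cnn1, Myh10 and Tpm4) and 8 over OP9-Jag1 (Actn4, Cald1, Ccn2, Cnn1, Flna, Lima1, Myh10 and Tpm4). Over OP9-GFP, Myh9 went to 0.19 (limma adjusted p = 0.093), Actg1 to 0.17 (adjusted p = 0.32) and Myl6 to 0.03 (adjusted p = 0.77). The calls of Actg1 and Lima1 over OP9-GFP were kept in 0 of 6 fits that leave out a library. With only the groups compared in the fit, the adjusted p in limma over OP9-GFP was 0.19 for Actg1, 0.092 for Myl6 and 0.0501 for Myh9, each above the threshold. The number called fell to 11 over OP9-Dll4 without its 6 h library 3, and to 10 over OP9-Jag1 without its 6 h library 2 or its 24 h library 3. The OP9 stromal marker sum ran from 6704 to 10273 at 6 h and from 5771 to 10389 at 24 h. The endothelial sum ran from 37.3 to 66.2 and from 27.1 to 41.3, with median marker changes of -0.32, -0.25 and -0.22 in the 3 layers. Of 5 cardiomyocyte markers, 4 rose over OP9-Dll4 and 0 over the other layers. Their sum over OP9-Dll4 was 13.7 to 38.1 at 6 h and 39.0 to 76.5 at 24 h. Among these markers Tnnt2 ran from 13.3 to 41.52 over the libraries of the first experiment. Myh7, Myl2, Actc1 and Ttn had medians of 0.036, 0.033, 0.033 and 0.231 there, where 3 reads make a signal of 0.179 to 0.221. The part of these marker lists in the changes was not tested.

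**Figure D2:**
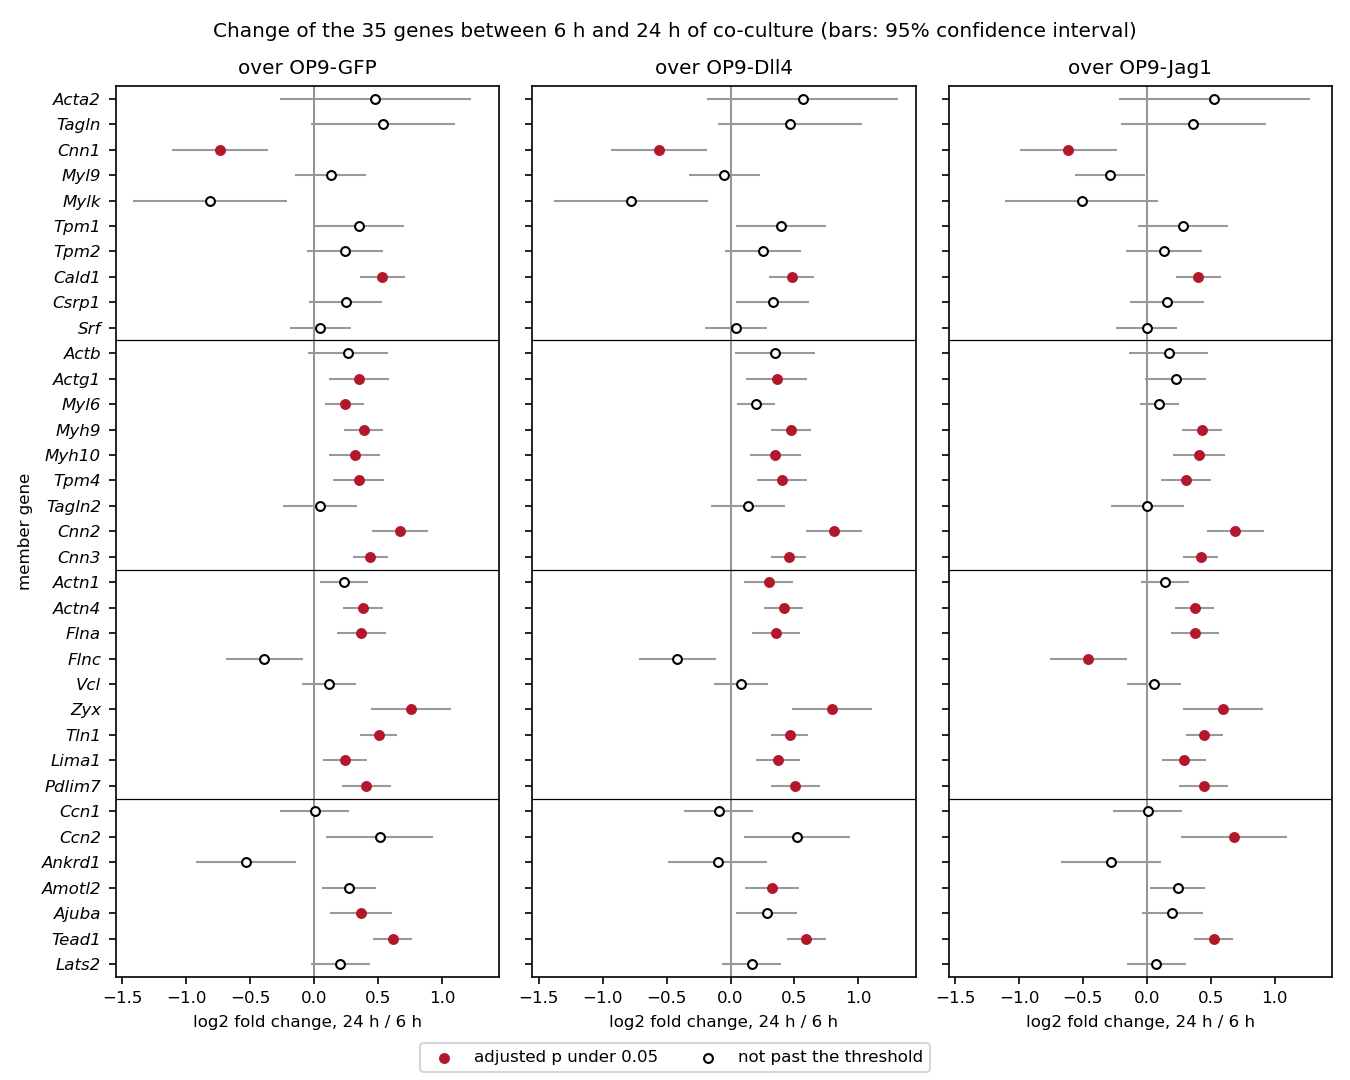
Log2 fold change of each of the 35 genes between 6 h and 24 h (x axis) over OP9-GFP, OP9-Dll4 and OP9-Jag1, with 95% confidence intervals from the limma fit and filled points for adjusted p under 0.05. Zyx, Cnn2 and Tead1 lie to the right in all 3 panels, between 0.52 and 0.81, and Cnn1 lies to the left, between -0.74 and -0.56.

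Ligand on the feeder was compared with OP9-GFP within each time, and few members differed. In these feeder comparisons the shares over all genes are of genes called in limma, and none was taken for an unadjusted p. At 6 h, limma called 0 of 35 members between OP9-Dll4 and OP9-GFP, against 0.0072% of all genes. Of the members, 0 were called by edgeR and 0 had an unadjusted p under 0.05. The member with the smallest p was Myl9, at 80.99, 60.41 and 54.72 over OP9-Dll4 and 81.56, 74.73 and 61.76 over OP9-GFP, a difference of -0.16 (SE 0.13) with overlapping libraries. The median member difference was -0.03, against -0.01 over all genes. Between OP9-Jag1 and OP9-GFP, limma called 0, against 0.101% of all genes, and edgeR called 0. At an unadjusted p under 0.05 there was 1 member. That member was Ccn2, at 186.1, 110.5 and 110.9 over OP9-Jag1 and 203.5, 211.4 and 146.8 over OP9-GFP, which overlap. Its difference of -0.49 (SE 0.20) had an adjusted p of 0.82, and 0.022 when the replicate number was a block. With that block Lima1 was also called (0.17, adjusted p = 0.033), 2 members in all, against 3.36% of all genes. The median member difference was 0.00, as over all genes. Between the Dll4 and Jag1 feeders at 6 h limma called 0 members, against 0% of all genes, and edgeR called 0. At an unadjusted p under 0.05 there were 0 members. Ccn2 had the smallest p there, at 176.5 and 135.8 (0.40, SE 0.20).

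At 24 h, OP9-Jag1 lowered 1 member, Myl9 (chr2:156775420-156781658, plus strand), where 2.02% of all genes were called, 0.987% lower. Its signal was 55.41, 52.89 and 55.65 over OP9-Jag1 and 82.99, 86.66 and 68.88 over OP9-GFP, so the groups did not overlap. The log2 difference was -0.53 (SE 0.13, limma adjusted p = 0.046). The call was kept by edgeR (adjusted p = 0.049), lost with quantile normalization (adjusted p = 0.059) and kept in 1 of the 6 fits that leave out a library. Leaving out OP9-GFP library 1 or 2 or any OP9-Jag1 library gave 0 calls. With the replicate block 2 members were higher (Lima1 and Ankrd1) and 6 lower (Myl9, Ajuba, Cald1, Vcl, Zyx and Actb), against 5.55% and 5.34% of all genes. Over OP9-Dll4 at 24 h, limma called 0, against 0.511% of all genes, and edgeR called 0. At an unadjusted p under 0.05 there were 3 members. These 3 were Ankrd1 (217.1 against 149.2; 0.53, SE 0.18), Lima1 (244.9 against 210.2; 0.22, SE 0.08) and Myl9 (62.32 against 79.51; -0.34, SE 0.13). The smallest p was that of Ankrd1, whose libraries were 253.1, 181.7 and 216.5 over OP9-Dll4 and 171.8, 135 and 140.7 over OP9-GFP, without overlap. With the block in limma all 3 were called (adjusted p = 0.00038, 0.0032 and 0.0037), against 5.82% of all genes. Of 5 cardiomyocyte markers measured, 4 were called higher over OP9-Dll4 than over OP9-GFP at 24 h (median change 1.78), and 4 than over OP9-Jag1. Their summed signal was 39.0 to 76.5 over OP9-Dll4, 24.9 to 30.1 over OP9-GFP and 17.9 to 30.3 over OP9-Jag1. As given above, all of them but Tnnt2 had medians near or below the signal of 3 reads. The part of the cardiomyocyte markers in the result was not tested. The Jag1 and Dll4 comparisons share the OP9-GFP libraries. The medians of the member differences at 24 h were -0.04 for OP9-Jag1 and 0.01 for OP9-Dll4, against 0.00 over all genes in both.

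Between the Dll4 and Jag1 layers at 24 h limma called 0 members, against 0.0288% of all genes, and edgeR called 0. At an unadjusted p under 0.05 there were 0 members. Myl9 had the smallest p, at 62.31, 62.92 and 61.72 against 55.41, 52.89 and 55.65, an adjusted p of 1 despite libraries that did not overlap. The change of a ligand difference between 6 h and 24 h passed the limma test for 0 members with Dll4 and 0 with Jag1. Over all genes 0.0072% passed in each, and edgeR called 0 members in both. At an unadjusted p under 0.05 there were 0 members with Dll4 and 1 with Jag1. That 1 was Myl9, at -0.42 (SE 0.18), which was called with the replicate block (adjusted p = 0.034; 0.569% of all genes lower).

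Blocking Notch in MEEC before co-culture lowered 2 members, both of the YAP-TEAD role, where 0.909% of all genes were called, 0.685% lower. Ccn2 (chr10:24595442-24598683, plus strand), also known as connective tissue growth factor, stood at 225.8, 299.8, 277.4 and 305.9 after DMSO and at 121, 173.8, 163.1 and 186.2 after RO4929097. Every treated library was below every vehicle library, and the log2 fold change was -0.79 (SE 0.13, limma adjusted p = 0.023). Lats2 (chr14:57689662-57758388, minus strand), a kinase that phosphorylates YAP, stood at 197.3, 214.3, 225.5 and 215.2 after DMSO and 163.5, 180, 172 and 176.3 after RO4929097. Its groups did not overlap either, and the change was -0.30 (SE 0.05, limma adjusted p = 0.034). In all, 30 of 35 members had a value below 0, with a median of -0.14 against 0.00 over all genes. At an unadjusted p under 0.05 there were 13, all lower, and the share of all genes at that unadjusted threshold was not taken.

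The treatments did not overlap in a further 3 members, Csrp1 (300.4 to 251.1), Vcl (1208 to 1025) and Lima1 (201.6 to 176.6), with limma adjusted p-values of 0.076, 0.14 and 0.18. That made 5 of 35 members fully separated and lower, against 3.31% of all genes. The libraries paired by number, and 17 of 35 members were lower after RO4929097 in all 4 pairs and 0 higher, against 12.1% and 11.9% of all genes. With the number as a block 7 members fell (Ccn2, Lats2, Csrp1, Pdlim7, Actn1, Ankrd1 and Ccn1), against 2.08% of all genes. Ankrd1 showed what the pairing did: its libraries were 196.7, 331.2, 291.9 and 411 after DMSO and 140.7, 230.2, 203.4 and 338.4 after RO4929097, lower in 4 of 4 pairs, with an adjusted p of 0.62 without the block and 0.0024 with it. Acta2 was lower in 3 of 4 pairs, at 1182, 1683, 1539 and 2141 against 1303, 1120, 1003 and 1519 (-0.39, SE 0.17, limma adjusted p = 0.47). Without the block the count rested on single libraries: it was 0 without DMSO library 2, 3 or 4 or RO4929097 library 2 or 3, 1 without RO4929097 library 1 or 4, and 3 without DMSO library 1. The stromal marker sum was 6105 to 7972 after DMSO and 5853 to 7048 after RO4929097. The endothelial sum was 41.4 to 51.0 and 37.0 to 49.9. The 5 endothelial markers had a median change of -0.28 against -0.14 for the members, and with the block 1 of them was lower, Flt1 (-0.79, adjusted p = 0.063 in limma without the block and 0.015 with it). The part of either marker list in the result was not tested.

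**Figure D3:**
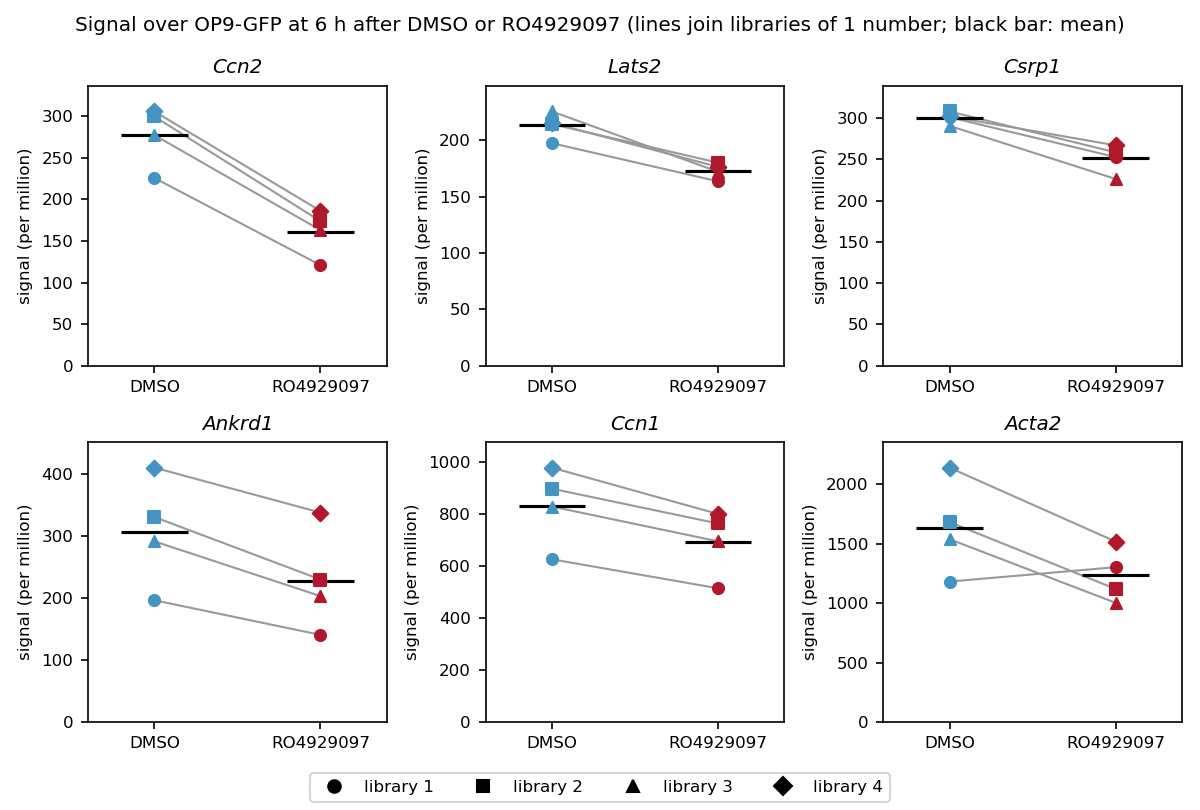
Signal of 6 members in the 4 DMSO and the 4 RO4929097 libraries over OP9-GFP at 6 h, with lines joining libraries of the same number and black bars for group means. Ccn2, Lats2 and Csrp1 separate completely, Ankrd1 and Ccn1 overlap but are lower along every line, and Acta2 is higher along 1 of 4 lines.

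On bound ligands without feeder cells, Pdlim7 was the member that rose with both. Its signal was 112.1, 112.8 and 150.9 on DMSO wells, 160.4, 159.5 and 168.4 on rDLL4 and 187.5, 193.6 and 200.1 on rJAG1. Both ligand groups lay wholly above DMSO. The log2 fold change was 0.39 on rDLL4 (SE 0.10, limma adjusted p = 0.047) and 0.64 on rJAG1 (SE 0.10, adjusted p = 0.00059), and the 2 comparisons share the DMSO libraries. Pdlim7 was the 1 member of 35 called on rDLL4, where 3.5% of all genes were called, 2.45% higher. On rJAG1 a second member, Tagln2 (transgelin 2; chr1:172500047-172507380, plus strand), was also called, where 9.58% of all genes were called, 4.83% higher. It stood at 394.7, 310.8 and 542.8 on DMSO wells and 613.8, 564.5 and 628.7 on rJAG1, without overlap (0.57, SE 0.14, limma adjusted p = 0.019). The median member change was 0.23 on both ligands, against 0.00 over all genes.

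For most members the difference from DMSO depended on the third DMSO library. Acta2 (chr19:34241090-34255590, minus strand) stood at 792.9, 632.1 and 1843 on DMSO wells, 1748, 1454 and 2009 on rDLL4 and 2128, 1490 and 2253 on rJAG1. The first 2 DMSO libraries were below all ligand libraries and the third was among them. Its change was 0.82 on rDLL4 (SE 0.31, limma adjusted p = 0.25) and 0.98 on rJAG1 (SE 0.31, adjusted p = 0.066). Without DMSO library 3 it was 1.28 (adjusted p = 0.0040) and 1.44 (adjusted p = 0.00060). Ankrd1 (chr19:36111961-36120099, minus strand), a nuclear ankyrin-repeat protein of stretched muscle, stood at 27.95, 20.02 and 147.7 on DMSO wells, 69.14, 68.59 and 121.9 on rDLL4 and 96.1, 80.51 and 149.4 on rJAG1. Its change on rJAG1 was 1.24 (SE 0.56, limma adjusted p = 0.22) with all libraries and 2.10 (adjusted p = 0.0014) without DMSO library 3. For Ccn2 on rJAG1 the values were 0.87 (adjusted p = 0.24) with that library and 1.43 (adjusted p = 0.0083) without it.

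Leaving out DMSO library 3 raised the calls to 14 members on rDLL4 and 21 on rJAG1, all higher, against 3.15% and 6.78% of all genes, with median member changes of 0.45 and 0.47. Leaving out rJAG1 library 2 as well gave 21 and 26, against 4.59% and 8.04%. Both libraries were singled out by their levels in these same members, the first as high and the second as low. Leaving them out therefore raises the members' changes by construction, and the shares over all genes are not a like comparison. On rDLL4 the count was 0 when any 1 of the 5 libraries other than DMSO library 3 was left out alone. On rJAG1 it was 1 without DMSO library 1 or 2 or rJAG1 library 3, and 4 without rJAG1 library 2. With all libraries and the replicate number as a block, 5 members rose on rDLL4 (Pdlim7, Tagln2, Acta2, Tpm4 and Cnn1; 4.02% of all genes) and 12 on rJAG1 (Acta2, Tagln, Cnn1, Tpm1, Csrp1, Actg1, Myl6, Tpm4, Tagln2, Pdlim7, Ccn2 and Ankrd1; 7.38%). In pairs of the same number, 6 members were higher on rDLL4 in 3 of 3 pairs and 2 lower, against 17.8% of all genes in each direction. On rJAG1 15 were higher and 2 lower, against 20.4% and 20.9%. Some members had values below 0: Flnc, Tead1, Tln1 and Ajuba had values of -0.19, -0.12, -0.11 and -0.20 on rDLL4 and -0.32, -0.29, -0.25 and -0.15 on rJAG1. The 5 endothelial markers had a median change of 0.20 on rDLL4 and 0.19 on rJAG1, and none was called. Their summed signal, 73.3 to 97.1 on rDLL4 and 62.9 to 75.6 on rJAG1 against 71.4 to 116 on DMSO wells, was mostly Tek, which differed by -0.33 and -0.68 (limma adjusted p = 0.73 and 0.077). The part of these markers in the result was not tested.

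**Figure D4:**
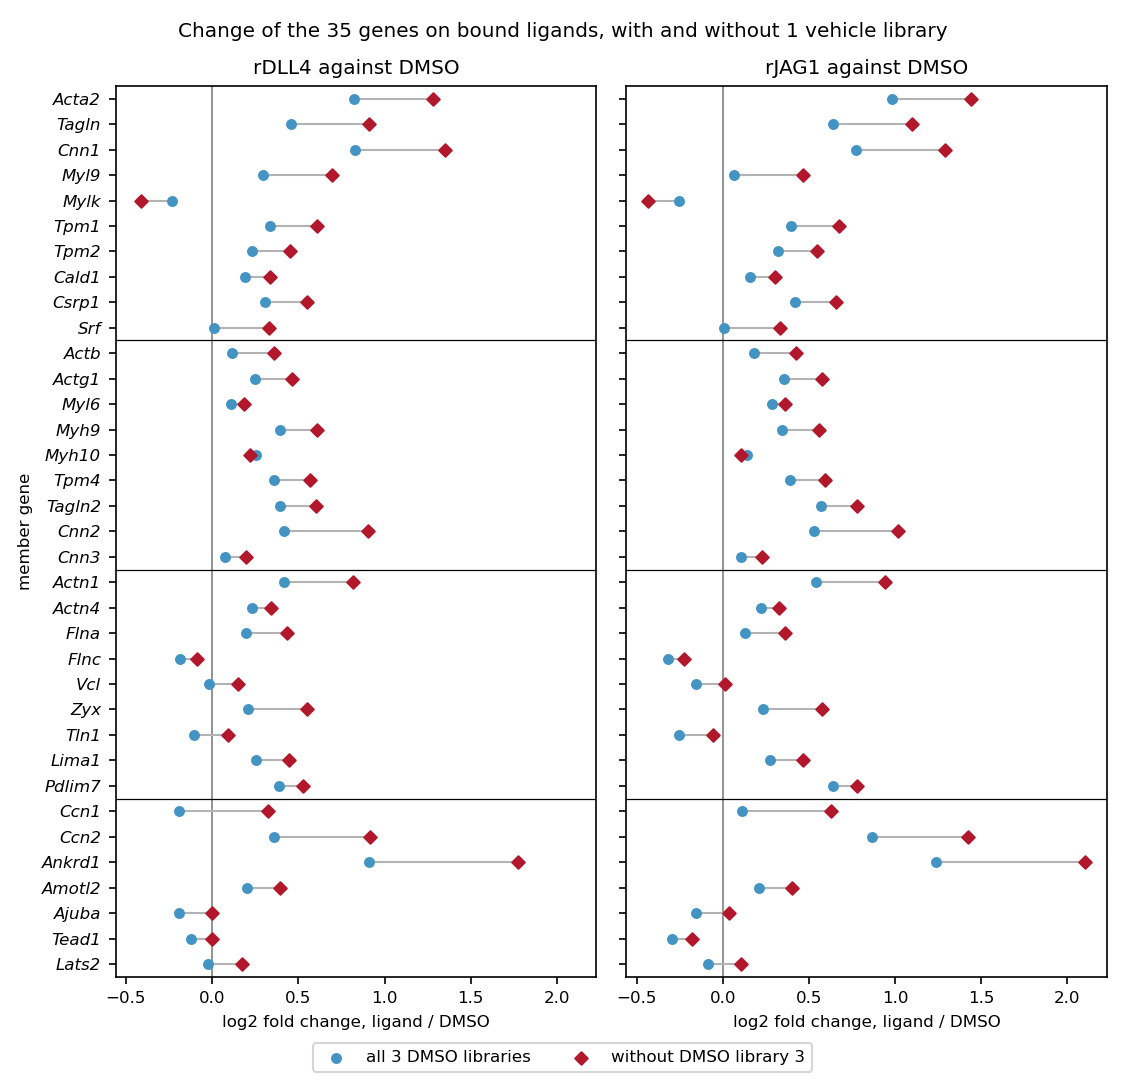
Log2 fold change of each of the 35 genes on rDLL4 and on rJAG1 against DMSO, with all DMSO libraries (circles) and without DMSO library 3 (diamonds). Most diamonds lie to the right of their circles, by most for Ankrd1, which moves from 0.91 to 1.77 on rDLL4 and from 1.24 to 2.10 on rJAG1.

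RO4929097 lowered 5 members on rDLL4 and the same 5, with a further 1, on rJAG1. On rDLL4 0 members rose, and 10.7% of all genes were called, 5.76% lower and 4.91% higher. On rJAG1 6 fell and 1 rose, where 18.4% of all genes were called, 8.78% lower and 9.58% higher. Acta2, Ccn2, Pdlim7, Tagln2 and Tpm1 fell on both, which is 5 of the 5 called on rDLL4 and 5 of the 7 called on rJAG1. These comparisons share no libraries, but they come from the same fit and share its estimate of each gene's spread. Libraries of the same number also deviated together between rDLL4 and rJAG1, and between rDLL4+RO and rJAG1+RO. The calls on the ligands are therefore not independent. The median member change was -0.31 on rDLL4 and -0.24 on rJAG1, against 0.01 over all genes in both.

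Acta2 stood at 741.6, 607.3 and 833.6 on rDLL4+RO, below all rDLL4 libraries, and at 927.3, 534.2 and 906.1 on rJAG1+RO, below all rJAG1 libraries. The log2 fold changes were -1.25 (SE 0.31, limma adjusted p = 0.017) and -1.33 (SE 0.31, adjusted p = 0.0076). Tpm1 (tropomyosin 1; chr9:67022590-67049406, minus strand) stood at 1747, 1635 and 1945 on rDLL4 and 1155, 1065 and 1211 with the inhibitor. On rJAG1 it stood at 1915, 1622 and 2041 and, with the inhibitor, at 1367, 1051 and 1291. Neither pair of groups overlapped, and the changes were -0.63 and -0.59 (SE 0.18 each; limma adjusted p = 0.038 and 0.036). Tagln2 fell from 537.1, 490.6 and 572.7 to 381.8, 343.9 and 379.8 on rDLL4, and to 440.8, 362.3 and 406.6 on rJAG1+RO, all below its rJAG1 libraries. Its changes were -0.53 and -0.58 (SE 0.14 each; adjusted p = 0.027 and 0.011, limma).

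Pdlim7 had the smallest adjusted p of the members on both ligands. It stood at 99.82, 100.1 and 107.5 on rDLL4+RO and at 120.7, 100.3 and 120.7 on rJAG1+RO. Both sets lay below every library on the ligand alone, with log2 fold changes of -0.66 (SE 0.10, limma adjusted p = 0.00043) and -0.77 (SE 0.10, adjusted p = 5.8e-05). It was kept in 6 of 6 fits that leave out a library on each ligand.

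Of the YAP-TEAD genes, Ccn2 fell from 153.5, 198.2 and 312.6 to 57.27, 68.29 and 117.3 on rDLL4 and from 236.9, 292.9 and 396.4 to 109.4, 93.46 and 169.9 on rJAG1. The groups were apart on each ligand, and the changes were -1.45 and -1.32 (SE 0.41 each; limma adjusted p = 0.033 and 0.035). Ankrd1 fell on rJAG1 from 96.1, 80.51 and 149.4 to 28, 16.72 and 46.18, without overlap (-1.87, SE 0.56, limma adjusted p = 0.029). On rDLL4 it went from 69.14, 68.59 and 121.9 to 20.02, 22.74 and 38.01, a difference of -1.65 with an adjusted p of 0.077. Mylk (chr16:34745210-35002420, plus strand) was the member that rose, from 2.818, 2.335 and 2.973 on rJAG1 to 3.984, 4.815 and 5.39 on rJAG1+RO (0.62, SE 0.20, limma adjusted p = 0.038). Its level is low, and on rDLL4 the difference was 0.57 with an adjusted p of 0.083. Ccn1, Ajuba, Tead1 and Lats2 were called on neither ligand.

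Separation of libraries was wider than the calls. On rDLL4, 24 members had every inhibitor library below every ligand library and 1 had the reverse, against 17.6% and 15.9% of all genes. On rJAG1 the counts were 11 and 4, against 17.7% and 17.4%. By role on rDLL4 the calls were 2 of 10 SRF and smooth-muscle type genes, 1 of 9 actin and myosin genes, 1 of 9 adhesion genes and 1 of 7 YAP-TEAD genes, all lower. DMSO library 3 bears on these calls too, through the spread shared by all groups of the fit: without it 15 members fell and 1 rose on rDLL4 (7.58% and 6.67% of all genes), and 13 fell and 2 rose on rJAG1 (10.8% and 11.4%). That library was singled out by its levels in these members, so the shares over all genes are not a like comparison. With the replicate block 12 fell and 4 rose on rJAG1, against 12.7% and 14.4% of all genes. On rDLL4 the count was 2 without rDLL4 library 1 or rDLL4+RO library 1, 1 without rDLL4 library 3 or rDLL4+RO library 2, and 3 without rDLL4+RO library 3. On rJAG1 it was 4 without rJAG1 library 1 and 2 without rJAG1+RO library 2. The endothelial markers moved in both directions. Their median change was -0.37 on rDLL4 and -0.55 on rJAG1, with 1 of 5 lower on rDLL4 (Nfatc1, -1.12) and 3 of 5 lower (Nfatc1, Eng and Kdr) and 1 higher (Tek, 0.76) on rJAG1. Tek made up most of their summed signal, which was 73.3 to 97.1 on rDLL4 and 103 to 117 on rDLL4+RO, and 62.9 to 75.6 on rJAG1 and 88.7 to 105 on rJAG1+RO. The part of these markers in the changes was not tested.

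**Figure D5:**
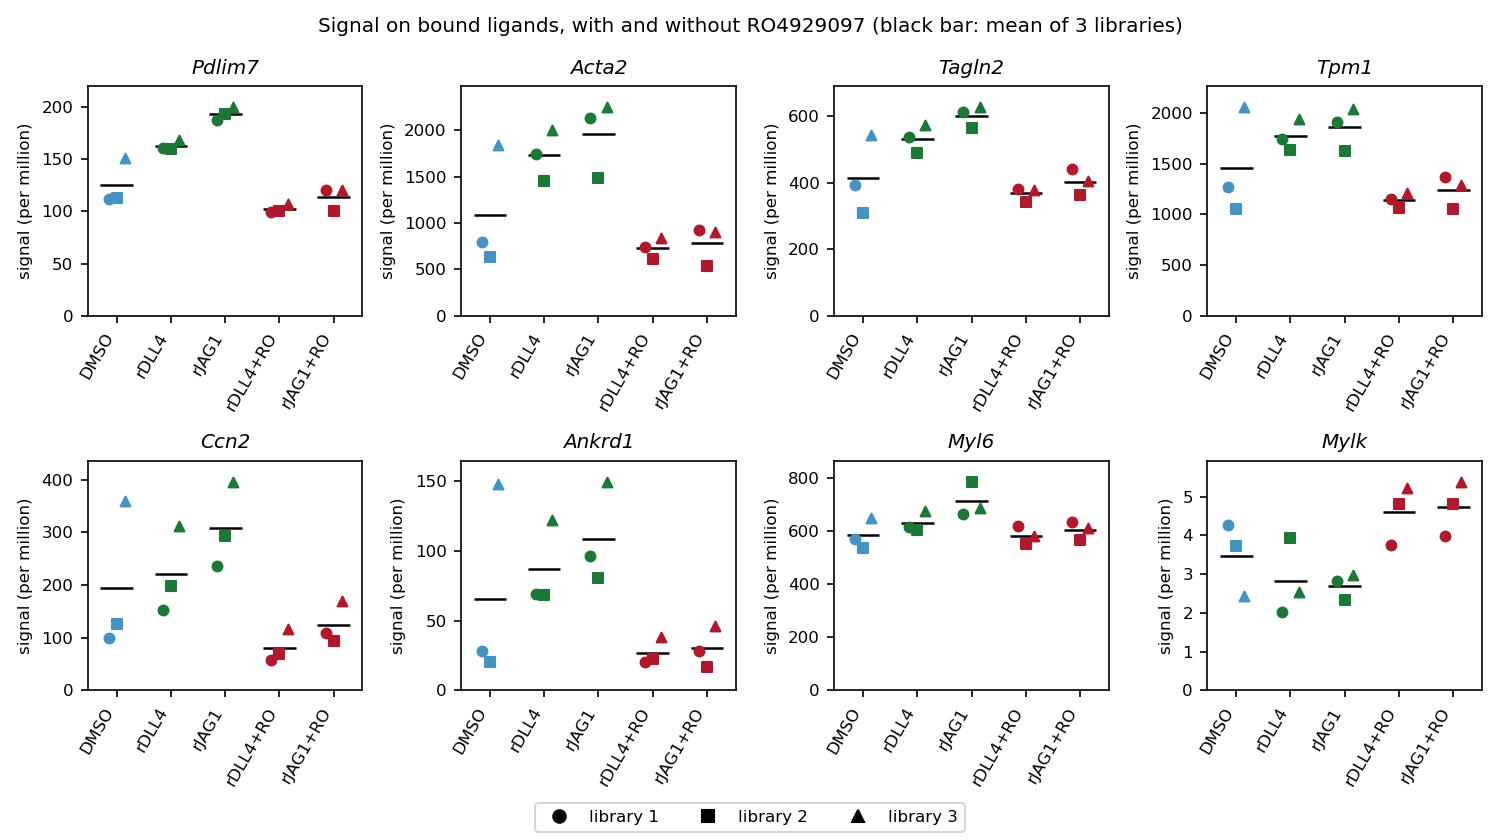
Signal of 8 members in each library of the 5 groups of the bound-ligand experiment (points, by group on the x axis), with group means as black bars. Pdlim7, Acta2 and Tagln2 are high on rDLL4 and rJAG1 and low with RO4929097, and DMSO library 3 lies near the ligand-alone libraries for Acta2 and Ankrd1.

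The ligands differed little from each other in these genes. Between rDLL4 and rJAG1 limma called 0 members, against 0.231% of all genes, with 1 member at an unadjusted p under 0.05. That member was Pdlim7, lower on rDLL4 by 0.25 on the log2 scale (95% interval -0.46 to -0.03, adjusted p = 0.59), with no overlap between 160.4, 159.5 and 168.4 and 187.5, 193.6 and 200.1. Between rDLL4+RO and rJAG1+RO limma called 0 members, against 0% of all genes, and 0 had an unadjusted p under 0.05. Even so, 35 of 35 members had a value below 0 (median -0.12, against 0.00 over all genes). Ccn2 had the smallest p there, at 57.27, 68.29 and 117.3 against 109.4, 93.46 and 169.9, which overlap. The effect of the inhibitor did not differ between the ligands for any member in limma (0 called, against 0.0149% of all genes, and 0 at an unadjusted p under 0.05). The difference for Acta2 was 0.08 with a 95% interval of -0.87 to 1.03, and for Pdlim7 0.10 with an interval of -0.20 to 0.41, the first of which is wide.

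With the inhibitor present, the ligand wells were set against DMSO wells. On rDLL4+RO limma called 0 members, against 1.4% of all genes, with 2 members at an unadjusted p under 0.05, both lower. Pdlim7 had the smallest p, at 99.82, 100.1 and 107.5 against 112.1, 112.8 and 150.9, without overlap (-0.27, SE 0.10, adjusted p = 0.27), and with the replicate block Ccn2 was called (adjusted p = 0.0031), against 2.22% of all genes. On rJAG1+RO limma called 0 members, against 0.94% of all genes, with 0 members at an unadjusted p under 0.05. Mylk had the smallest p, at 3.984, 4.815 and 5.39 against 4.264, 3.735 and 2.429, which overlap (0.37, SE 0.20, adjusted p = 0.61). The median member value was -0.13 on rDLL4+RO and -0.01 on rJAG1+RO, and 0.08 and 0.20 without DMSO library 3, so the sign of both medians turned on that library.

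Over the 21 comparisons and interactions, 28 of the 35 members were called at least once, against 41% of the genes present in every table, and Actb, Ccn1, Csrp1, Srf, Tagln, Tpm2 and Vcl were called in none. Srf, which encodes the factor itself, had group means from 60.24 to 133.4.

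Other genes of these pathways were followed as 3 lists. Between 6 h and 24 h, of 22 other SRF-MRTF genes measured, 4 rose over OP9-GFP, 4 over OP9-Dll4 and 3 over OP9-Jag1, and none fell. Filip1l changed by 0.47, 0.61 and 0.70, and the coactivator Mrtfa by 0.40, 0.35 and 0.32. Of 22 Hippo kinases, adaptors, YAP/TAZ and TEAD genes, 7, 7 and 4 rose and none fell, led by Wwc2 (0.79, 0.67 and 0.65) and Tead3 (0.62, 0.71 and 0.64). Of 17 other YAP-TEAD targets, 5, 9 and 8 rose and 1, 1 and 2 fell, with Rbms3 at 1.00, 0.96 and 0.96. Over all genes 9.45%, 9.09% and 7.14% rose, against 18.2%, 18.2% and 13.6% of the SRF-MRTF list, 31.8%, 31.8% and 18.2% of the Hippo list and 29.4%, 52.9% and 47.1% of the YAP-TEAD targets.

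Under the inhibitor on rDLL4 and rJAG1, 3 and 4 of the 22 other SRF-MRTF genes fell (13.6% and 18.2%, against 5.76% and 8.78% of all genes), and 0 and 1 rose. Tuft1 had the largest change, at -1.52 and -2.00 (SE 0.07 each), against 1.47 and 2.01 on the ligands over DMSO, and -0.55 with the inhibitor over OP9-GFP. It was also higher than over OP9-GFP at 6 h on OP9-Dll4 (0.51, limma adjusted p = 0.034) and OP9-Jag1 (0.82, adjusted p = 3.9e-05), where no member was called. The lists were chosen with earlier results of these data known, so the place of Tuft1 in this list is not independent of them. Of the 17 other YAP-TEAD targets, 4 and 6 fell (23.5% and 35.3%) and 1 and 2 rose. Nt5e, the ectonucleotidase CD73, changed by -1.95 and -2.44, and Tgfb2, a ligand active in endocardial cushions, by -0.87 and -1.29. Of the Hippo list, 1 and 3 fell (4.55% and 13.6%) and 2 and 3 rose (9.09% and 13.6%, against 4.91% and 9.58% of all genes), shares near those over all genes, with Wwc2 higher (0.58 and 0.89) and Amotl1 lower (-0.50 and -0.55). On the ligands over DMSO, 3 and 6 of the 17 other YAP-TEAD targets rose (17.6% and 35.3%, against 2.45% and 4.83% of all genes), with 0 and 1 lower. Over OP9-GFP the inhibitor lowered 1 of 22 SRF-MRTF genes (Tuft1) and 1 of 17 YAP-TEAD targets (Tgfb2, -0.71), and called no Hippo gene in limma.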

How the data were processed

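RNA-seq of 41 libraries was used. The deposited signal tables were made by the authors, and per the submitters' processing notes the tools named were FastQC, cutadapt, RSEM and limma with GRCm38, without versions or settings. Each deposited signal value is a read number plus 0.5 over a scaled library size, and each table was analysed apart. Positions are those of GENCODE M21 on GRCm38.

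Differences were tested with limma 3.58.1 in R 4.3.3 on log2(signal + 1), with the groups of a table in 1 fit, a mean-variance trend and Benjamini-Hochberg adjustment over all genes of the table; fold changes on this scale understate the change of low genes. A call is an adjusted p under 0.05. The fit was tested on simulated data. The alternatives were a pseudocount of 0.5, a mean signal of at least 4, quantile normalization, the replicate number as a block, the groups of a contrast alone, each library left out, and edgeR 4.0.16 on recovered reads of the first experiment. Same-numbered libraries deviated together (every r above 0.1) except between times within a feeder and for RO4929097 on rDLL4.

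All 35 members are named with a level, called members with their change (the rule was at most 12 a contrast by size and the rest as a range, and for time in co-culture all are given), and at most 3 a role with their libraries. Lists followed were the other SRF-MRTF genes, the Hippo genes, the other YAP-TEAD targets, Notch targets and markers of stromal, endothelial, smooth muscle, cardiomyocyte and adipocyte cells. 1 further list of pathway genes is not reported here. The members and lists were chosen with earlier results of these data known.

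The exclusion of DMSO library 3 from further comparisons, with rJAG1 library 2 or with the block, and that of the libraries numbered 2 at 6 h were added after the data were seen.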

Additional observations from a re-analysis of the deposited data

Results flagged for a closer look

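In the 2 groups of 4 libraries over OP9-GFP, 5 of the values of single members lay far from the other 3 of their group. After DMSO these were Lima1 in library 4, at 197.3 where the others lay between 202.7 and 203.5, and Amotl2 in library 1, at 348.8 where the others lay between 421.5 and 435.4. After RO4929097 they were Cald1 in library 4 at 1271, Tagln2 in library 3 at 558.9 and Tln1 in library 4 at 670.2. A check of this kind marks about 1 group in 20 by chance, and 70 were checked.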

How the results depend on the processing

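The numbers of members called depend most on the replicate block and on DMSO library 3. That library and rJAG1 library 2 were singled out by their levels in these members, so counts without them are not a separate test. With the replicate block they were 2 for OP9-Jag1 against OP9-GFP at 6 h, 3 for OP9-Dll4 and 8 for OP9-Jag1 against OP9-GFP at 24 h, 1 for the Jag1 by time interaction, 7 for RO4929097 over OP9-GFP, 5 and 12 for rDLL4 and rJAG1 against DMSO, 16 for RO4929097 on rJAG1 and 1 for rDLL4+RO against DMSO. Where the numbers did not pair the libraries, the block gave 29 (OP9-GFP) and 28 (OP9-Dll4) for 24 h against 6 h and 15 for RO4929097 on rDLL4; 100%, 66.7% and 100% of libraries over OP9-GFP, OP9-Dll4 and OP9-Jag1, and 33.3% for RO4929097 on rDLL4, correlated best with their own number. Quantile normalization gave 0 for OP9-Jag1 against OP9-GFP at 24 h, 11 over OP9-GFP and 8 over OP9-Jag1 for time, and 0 for rDLL4 against DMSO. Fitting only the groups compared gave 0 for rDLL4 and 1 for rJAG1 against DMSO and 21 for RO4929097 on rDLL4. Without DMSO library 3, RO4929097 gave 16 on rDLL4 and 15 on rJAG1. Without it and rJAG1 library 2, the counts were 21 and 26 for rDLL4 and rJAG1 against DMSO, 18 for RO4929097 on rJAG1 and 1 for rJAG1+RO against DMSO. Without it and with the block they were 23 and 24 for rDLL4 and rJAG1 against DMSO, 2 between the ligands, 24 and 26 for RO4929097 on rDLL4 and rJAG1, and 2 and 3 for rDLL4+RO and rJAG1+RO against DMSO. Leaving out 1 library gave 0 to 1 for OP9-Jag1 at 24 h, 12 to 16, 11 to 21 and 10 to 15 for time over OP9-GFP, OP9-Dll4 and OP9-Jag1, 0 to 3 for RO4929097 over OP9-GFP, 0 to 14 and 1 to 21 for rDLL4 and rJAG1 against DMSO, and 1 to 4 and 2 to 7 for RO4929097 on rDLL4 and rJAG1. The cause was not tested. Only some of these counts have a share over all genes, given above, so the counts alone do not set the members apart. The block can raise calls across the whole table too. For RO4929097 on rJAG1 the all-gene shares went from 9.58% to 14.4% (higher) and from 8.78% to 12.7% (lower). Of 889 alternative fits of 68 called single-gene results, 702 kept the call, 187 lost it and 0 changed direction. edgeR was run on the first experiment alone; it was not run on the other tables, whose values also gave whole reads for 100% of genes (within 0.01); Mylk has no value under the filter on mean signal.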
